A study of Mus musculus with 12 samples.

Results

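The genes described here are 10 genes of nicotinamide adenine dinucleotide (NAD) synthesis, chosen by name: Afmid, Kmo, Kynu, Qprt, Naprt, Nadsyn1, Nampt, Nmrk1, Nmnat1 and Nmnat3. All 10 were found among the 24982 gene symbols of the deposited tables, and all 10 passed the filter on low values. The tables hold the mean coverage of each gene in sequenced polyadenylated RNA, taken from B lymphocytes of the spleens of mice aged 6 weeks. There were 3 groups of 4 libraries, which the labels call biological replicates. The WT group came from wild-type mice that the series text calls C57BL/J6. The Eμ-Myc group carried a Myc transgene driven by the immunoglobulin heavy-chain enhancer, which acts in the B lineage. The third group carried the same transgene and lacked PRPS2 (Eμ-Myc; PRPS2 KO, called the knockout group here), so that its direct control is Eμ-Myc and not WT. The labels give neither the number of mice behind a library, their sex, the kind of Prps2 deletion, nor the way the B cells were isolated.

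Cells make NAD by several routes that join near the end. In the kynurenine route tryptophan is broken down in steps, and AFMID, KMO, KYNU and HAAO lead to quinolinate, which QPRT turns into nicotinate mononucleotide. NAPRT makes the same nucleotide from nicotinic acid, while NAMPT and the riboside kinase NMRK1 make nicotinamide mononucleotide from recycled nicotinamide and from nicotinamide riboside. The NMNAT enzymes attach the adenylate, NMNAT1 in the nucleus and NMNAT3 in mitochondria, and NADSYN1 amidates the product of the acid branches. QPRT, NAPRT and NAMPT all consume phosphoribosyl pyrophosphate (PRPP), the product of PRPS2 and its isoform PRPS1, which links these genes to the deleted enzyme.

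The sums of coverage per library ran from 1277305.5 to 1885768.9, with 14900 to 16231 genes above 0. The read depth is unknown, so errors are the spread between libraries. Values are coverages after division by 1 scaling factor per library, called scaled coverage. Prps2 averaged 242 ± 39.6 (SD, n = 4) in Eμ-Myc but 17.1 ± 0.95 once deleted, and Myc rose from 277 ± 53.8 in WT to 1882 ± 321 in Eμ-Myc, as the labels require. The knockout group fell into 2 pairs of like libraries. Across genes the SD of log2 differences was 0.37 between knockout libraries 1 and 2 and 0.29 between 3 and 4, but 1.11 to 1.31 across the pairs. In WT it was 0.30 between libraries 2 and 3 and 0.61 to 0.70 for the other pairs. The 7 B-cell markers were above 0 in every library and summed to between 6099 and 11770, so the labelled cell type was present. The 10 myeloid markers summed to between 10300 and 28070 in WT, 7026 and 18490 in Eμ-Myc, and 2345 and 17660 in the knockout group. The 7 T-cell markers summed to between 422 and 2415 in WT, 86.4 and 121 in Eμ-Myc, and 12.3 and 535 in the knockout group. In bulk RNA, fewer cells of a type and less RNA per cell cannot be told apart, and this touches every gene below.

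Of the 10 genes, 8 had a RefSeq promoter entry on GRCm38.p6 (250 bases before to 50 after the start in RefSeq), and 3 are printed because the results turn on them: Kmo, which fell in Eμ-Myc; Afmid, which fell while the gene on the other strand rose; and Nampt, which did not pass the test. In Kmo (chr1:175631943-175632242, plus strand) the capitals mark GAGGAAGT, a purine-rich motif of the kind that ETS factors such as PU.1 recognise, which was searched for after the sequence had been seen. In Afmid (chr11:117825669-117825968, plus strand) the 45 capitals are bases that GENCODE M21 annotates as exon of both Afmid and Tk1. In Nampt (chr12:32820085-32820384, plus strand) the capitals mark CACGCG on either strand. RefSeq's start is not the GENCODE M21 gene start used for the positions given with each gene: it lay 11812 bases inside the gene for Kmo, 790 bases inside for Nampt, and within 5 bases for Afmid. The window printed for Kmo is therefore not the sequence before the GENCODE start.
Kmo: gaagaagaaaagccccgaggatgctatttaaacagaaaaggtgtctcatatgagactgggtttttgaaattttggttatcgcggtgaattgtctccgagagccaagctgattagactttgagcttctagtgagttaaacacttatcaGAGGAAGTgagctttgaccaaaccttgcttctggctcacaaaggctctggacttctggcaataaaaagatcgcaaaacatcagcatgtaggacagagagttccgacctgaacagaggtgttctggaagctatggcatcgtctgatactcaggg
Afmid: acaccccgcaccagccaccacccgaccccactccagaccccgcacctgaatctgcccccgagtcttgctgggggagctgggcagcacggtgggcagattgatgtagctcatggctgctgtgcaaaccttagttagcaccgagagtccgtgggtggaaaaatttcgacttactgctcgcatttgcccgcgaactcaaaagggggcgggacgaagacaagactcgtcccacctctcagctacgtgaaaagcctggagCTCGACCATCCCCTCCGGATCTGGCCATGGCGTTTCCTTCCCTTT
Nampt: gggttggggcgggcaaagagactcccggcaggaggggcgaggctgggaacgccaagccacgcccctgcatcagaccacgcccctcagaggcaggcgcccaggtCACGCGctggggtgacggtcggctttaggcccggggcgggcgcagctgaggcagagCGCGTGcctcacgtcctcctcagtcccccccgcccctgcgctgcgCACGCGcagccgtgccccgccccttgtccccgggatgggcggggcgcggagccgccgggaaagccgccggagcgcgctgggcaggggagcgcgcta

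The hexamer CACGTG is the E-box that Myc binds with its partner Max, and CACGCG is a variant of it. Both were searched on both strands of all 32851 promoter windows of 300 bases. CACGTG occurred in 7.15% of windows and in 0 of the 8 matched genes. CACGCG occurred in 9.27% of windows and in 1 of the 8, Nampt, with 3 matches of which the one farthest upstream began 147 bases before the RefSeq start. GAGGAAGT occurred in 3.2% of windows and in 1 of the 8, Kmo, 103 bases before the RefSeq start. These are matches of letters only.

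The first comparison, Eμ-Myc against WT, asks what the transgene changed. Of the 10 genes, 5 fell and 0 rose at an adjusted p under 0.05 (limma, Benjamini-Hochberg over 12704 genes), beside 27.4% of all genes tested that fell. All 4 genes of the kynurenine route fell, by 1.09 to 1.89 on the log2 scale, and of the other 6 genes only Nadsyn1 fell. The groups did not overlap, with Eμ-Myc lower, for 6 of the 10, beside 26.1% of all genes. The median log2 fold change of the 10 genes was -0.45 beside -0.06 over all genes. The values of every library are shown in the plot by gene.

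**Figure D1:**
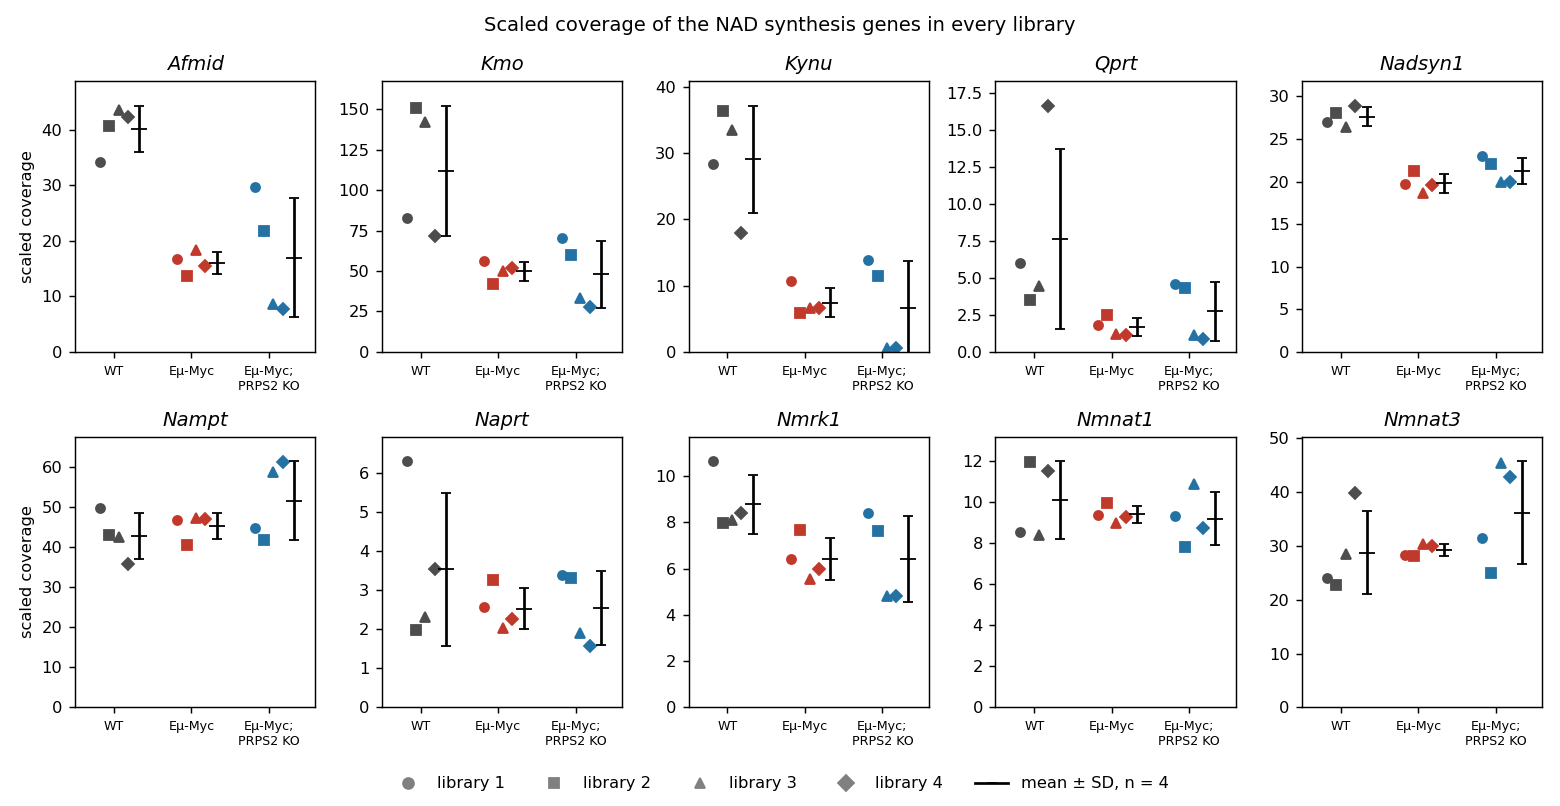
Scaled coverage (linear axes from 0, a separate scale for each gene) of the 10 genes in each of the 12 libraries, with symbols for library numbers and a bar for the mean ± SD of 4 libraries (the Kynu knockout bar reaches below 0 and is cut at the axis). Afmid, Kmo, Kynu, Qprt, Nadsyn1 and Nmrk1 were lower in all 4 Eμ-Myc libraries than in all 4 WT libraries, and knockout libraries 3 and 4 lay apart from 1 and 2 for Kynu, Afmid and Kmo.

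Afmid, which encodes the formamidase that frees kynurenine from N-formylkynurenine (ENSMUSG00000017718.15, chr11:117825924-117839908 on GRCm38), had scaled coverages of 34.2, 40.7, 43.6 and 42.2 in WT libraries 1 to 4 and of 16.8, 13.7, 18.4 and 15.4 in Eμ-Myc. The groups lay far apart, with the highest Eμ-Myc library well below the lowest WT library. Afmid fell by 1.30 on the log2 scale (SE 0.13, adjusted p = 4.8e-05). It starts 168 bases from Tk1, the thymidine kinase gene of the S phase, which runs the other way, and 83 of its 2327 annotated exonic bases are also exonic in Tk1. Tk1 went the opposite way, from 71.8 ± 14.6 in WT to 209 ± 19.4 in Eμ-Myc (SD, n = 4), a rise of 1.55 on the log2 scale (adjusted p = 3.1e-05). The library kit keeps the strand, per the labels, but whether the coverage was counted by strand is not given in the sources used here. A further 1566 exonic bases are shared with Gm20708, annotated on the same strand and not analysed here, so Afmid's level is uncertain to that extent.

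Kmo encodes kynurenine 3-monooxygenase of the outer mitochondrial membrane, which commits kynurenine to the branch leading to quinolinate (ENSMUSG00000039783.15, chr1:175620381-175662116). Its scaled coverages were 82.8, 151, 142 and 71.9 in WT and 56.2, 41.9, 50.1 and 51.6 in Eμ-Myc. WT libraries 2 and 3 were about as high as each other and stood above 1 and 4, and all Eμ-Myc libraries lay below all WT libraries. Kmo fell by 1.09 on the log2 scale (SE 0.24, adjusted p = 0.0043). Without WT libraries 1 and 4 the fall was 1.55, and without WT libraries 2 and 3 it was 0.63, with adjusted p = 8.9e-05 and 0.0127. The annotated span of Kmo overlaps that of Fh1, the fumarate hydratase gene on the other strand, with 0 shared exonic bases, and Fh1 rose by 0.87 on the log2 scale (adjusted p = 0.0026).

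Kynu encodes kynureninase, which cuts 3-hydroxykynurenine to 3-hydroxyanthranilate (ENSMUSG00000026866.16, chr2:43555329-43682715). It read 28.4, 36.4, 33.5 and 17.99 in WT and 10.7, 5.81, 6.66 and 6.56 in Eμ-Myc. Every Eμ-Myc library was below every WT library. The fall of 1.89 on the log2 scale had an SE of 0.25 and an adjusted p of 0.00024 (limma). With the 3 groups in 1 fit, which lets the spread of the knockout libraries into the error, the same fall had an adjusted p of 0.0714.

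Qprt encodes the phosphoribosyltransferase that joins quinolinate to PRPP (ENSMUSG00000030674.5, chr7:127107114-127122226). Its coverage was low: 5.97, 3.51, 4.43 and 16.6 in WT against 1.84, 2.46, 1.21 and 1.13 in Eμ-Myc. WT library 4 stood far above the other 3, and the groups did not overlap. Qprt fell by 1.71 on the log2 scale (SE 0.43, adjusted p = 0.0084), by 1.08 without WT libraries 1 and 4 and by 2.33 without WT libraries 2 and 3.

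Haao, whose product 3-hydroxyanthranilate dioxygenase stands between KYNU and QPRT, was taken from a list of 8 further kynurenine pathway genes and is not one of the 10. It ran from 102 to 161 in WT and from 49.0 to 73.8 in Eμ-Myc. The groups did not overlap, and Haao fell by 1.08 on the log2 scale (SE 0.17, adjusted p = 0.00066), so that all 5 genes from formylkynurenine to nicotinate mononucleotide fell. The transaminases that divert kynurenines away from NAD went the other way: Kyat3 rose by 1.92 on the log2 scale (SE 0.21, adjusted p = 7.5e-05) and Kyat1 by 0.60 (SE 0.17, adjusted p = 0.0155). Kyat3 ran from 5.47 to 10.7 in WT and from 26.8 to 34.3 in Eμ-Myc. The other 5 genes of that list did not reach the filter. Among them the enzymes that open the pathway were at the bottom of the scale: Ido1 reached at most 1.45, Tdo2 0.102 and Ido2 0.0963 in any library. Acmsd, which draws the pathway away from quinolinate, reached 0.453, and Aadat was listed at 0 in all 12 libraries.

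**Figure D2:**
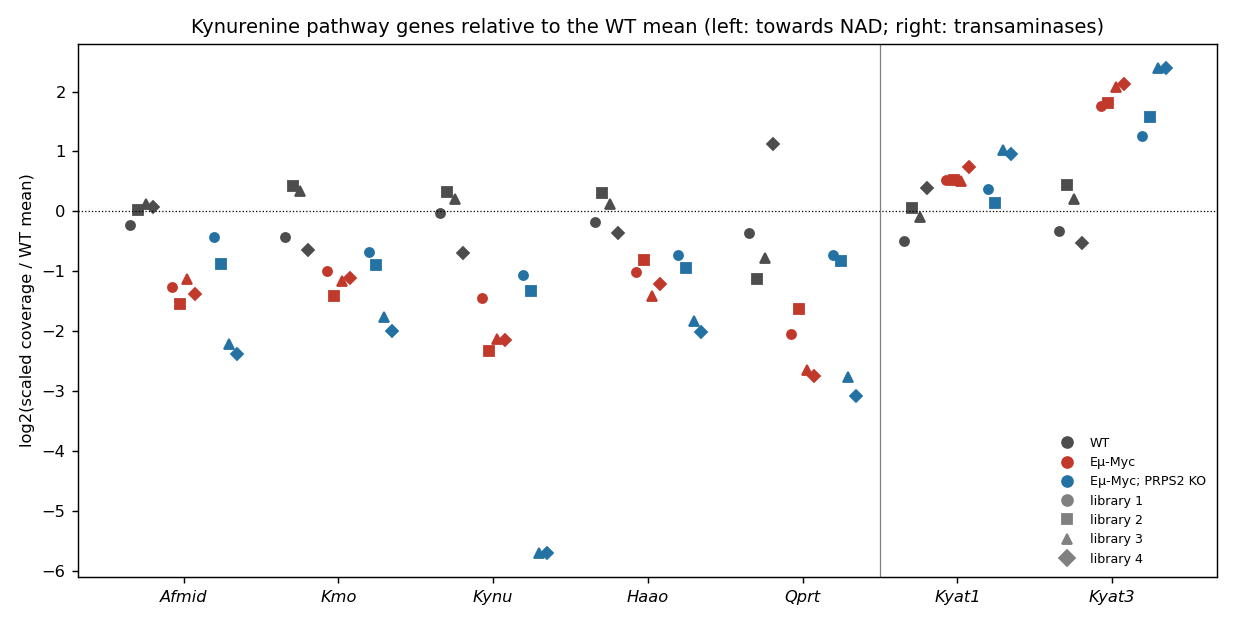
Each point is 1 library, as the log2 of its scaled coverage over the WT mean of that gene, for the 5 genes from formylkynurenine to nicotinate mononucleotide (left of the line) and 2 transaminase genes (right of it). Colours are groups and symbols are library numbers. The Eμ-Myc points lay below every WT point for Afmid, Kmo, Kynu, Haao and Qprt and above every WT point for Kyat1 and Kyat3.

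Markers of other cells moved with these falls. All 7 T-cell markers fell in Eμ-Myc against WT (limma), where 27.4% of all genes fell, with a median log2 fold change of -3.10, as did all 5 natural killer cell markers, with a median of -2.18. Of the 6 dendritic markers 3 fell, and of the 10 myeloid markers 0 passed the test although all 10 had negative values, with a median of -0.41. Of the 7 B-cell markers only Cd22 fell, by 1.00 on the log2 scale (limma, adjusted p = 0.0038), and of 5 plasma cell markers Xbp1 and Prdm1 did. None of these markers was at 0 in all libraries of a group. WT library 4 was highest both in Qprt and in the T-cell sum, which was 2415 against 422 to 799 in the other 3 WT libraries. Within Eμ-Myc these orders differed, since the T-cell sum was highest in library 1 and Qprt in library 2. The natural killer sums had the same order of libraries as Qprt within each group. In Eμ-Myc libraries 1 to 4 they were 161, 200, 87.0 and 70.6. The myeloid sums had the order of Qprt in Eμ-Myc but not in WT, and the dendritic sum was highest in Eμ-Myc library 1. Kmo followed the B-cell markers within WT, whose sums were 11770 and 10130 in libraries 2 and 3 and 6333 and 6099 in libraries 1 and 4. Within Eμ-Myc it did not, since library 2 had the highest B-cell sum, 8274, and the lowest Kmo, 41.9. The part of T, natural killer, dendritic and myeloid cells in the result was not tested.

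The 5 genes that fell and Haao were also set against the B-cell markers of the same library. Per 1000 units of summed B-cell marker coverage, Kmo read 11.8 to 14.1 in WT and 5.06 to 7.77 in Eμ-Myc. Kynu read 2.95 to 4.48 against 0.702 to 1.47. Afmid read 3.45 to 6.93 against 1.66 to 2.71, and Haao 13.7 to 18.2 against 7.03 to 8.92. For the other two the groups were not apart on this scale. Nadsyn1 read 4.27, 2.38, 2.61 and 4.74 in WT and 2.72, 2.57, 2.75 and 2.45 in Eμ-Myc, which overlap, and the lowest WT value of Qprt and its highest Eμ-Myc value were both 0.298. The spread within WT was wider on this scale for Afmid than in its coverage. Among the knockout libraries Afmid read 4.41, 3.20, 1.35 and 1.17, of which the first lay within the WT range, and Kmo read 10.4, 8.86, 5.17 and 4.25. The marker sum holds Cd22, which itself fell, and the part of B-cell content in these falls was not tested.

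**Figure D3:**
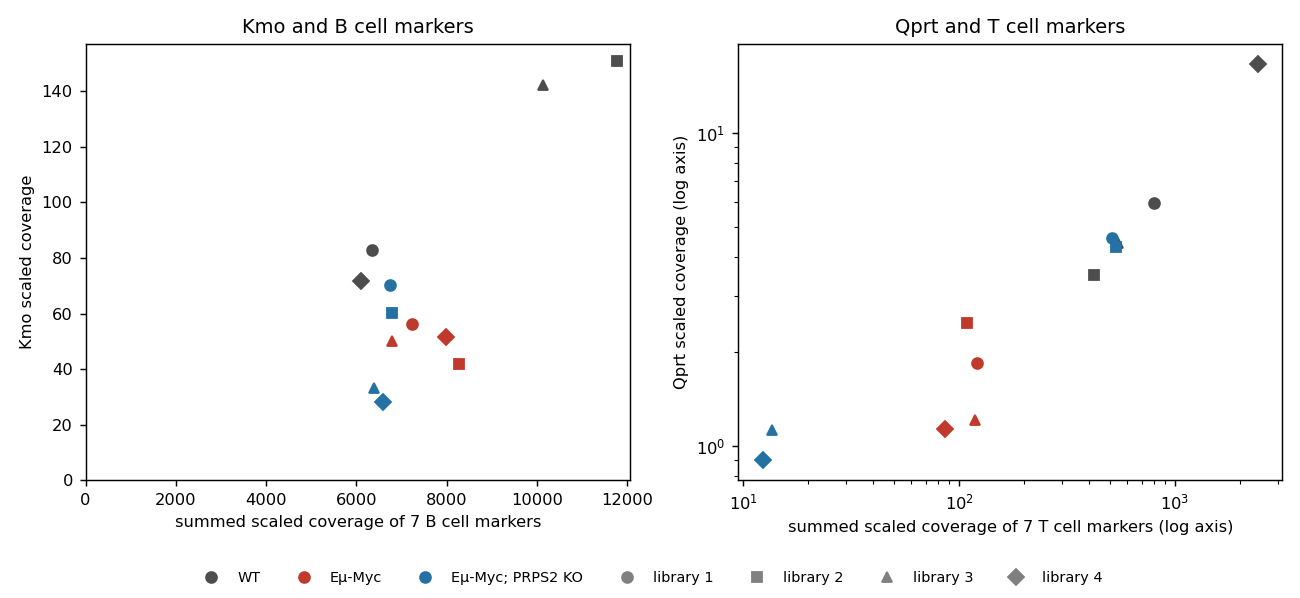
Kmo against the summed scaled coverage of 7 B-cell markers (left, linear axes from 0) and Qprt against that of 7 T-cell markers (right, log axes); each point is 1 of 12 libraries, coloured by group, with symbols for library numbers. WT libraries 2 and 3 were high in both Kmo and the B-cell sum, while Qprt and the T-cell sum were both highest in WT library 4 and lowest in knockout library 4.

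Nadsyn1 encodes NAD synthetase, the last step of the acid branches (ENSMUSG00000031090.14, chr7:143795584-143822849). It read 27.02, 28.1, 26.4 and 28.9 in WT and 19.7, 21.3, 18.7 and 19.6 in Eμ-Myc. These were the tightest groups among the genes that fell, and they did not overlap. Nadsyn1 fell by 0.47 on the log2 scale (SE 0.10, adjusted p = 0.0039). Its start lies 296 bases from that of Dhcr7, a cholesterol synthesis gene on the other strand, for which the log2 fold change was 0.03 (adjusted p = 0.833).

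Naprt, the entry point for nicotinic acid (ENSMUSG00000022574.7, chr15:75890956-75894481), read 6.29, 1.99, 2.31 and 3.53 in WT and 2.57, 3.26, 2.02 and 2.26 in Eμ-Myc. The groups overlapped, and WT library 1 alone was high. The log2 fold change was -0.31 with a 95% confidence interval from -1.03 to 0.40 (adjusted p = 0.42). Of its 1898 exonic bases 277 are shared with Eef1d, a translation factor gene on the same strand with mean scaled coverages of 1013 in WT and 1621 in Eμ-Myc, so the low values of Naprt are uncertain.

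Nampt encodes the rate-limiting enzyme of nicotinamide recycling (ENSMUSG00000020572.8, chr12:32819545-32853349). It read 49.7, 42.9, 42.5 and 35.6 in WT and 46.7, 40.4, 47.2 and 46.8 in Eμ-Myc. The groups overlapped almost fully. The log2 fold change was 0.09, with a 95% confidence interval from -0.18 to 0.36 (adjusted p = 0.543), and -0.04 when libraries were scaled by their total coverage.

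Nmrk1, which phosphorylates nicotinamide riboside (ENSMUSG00000037847.14, chr19:18631950-18652428), read 10.7, 7.96, 8.09 and 8.43 in WT and 6.44, 7.66, 5.55 and 6.00 in Eμ-Myc. The groups came close but did not overlap. Its log2 fold change of -0.43 (SE 0.17) missed the threshold, with an adjusted p of 0.0548. It passed with total coverage scaling (adjusted p = 0.0186), with library quality weights (0.0054) and without Eμ-Myc library 2 (0.0294), and over all alternatives its adjusted p ran from 0.0054 to 0.198. Its start lies 127 bases from that of Ostf1 on the other strand, which fell by 0.45 on the log2 scale (adjusted p = 0.0412).

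The 2 adenylyltransferase genes did not pass the test. Nmnat1 (ENSMUSG00000028992.13, chr4:149467572-149485202) read 8.55, 11.9, 8.38 and 11.5 in WT and 9.38, 9.94, 8.99 and 9.28 in Eμ-Myc, with a log2 fold change of -0.08 and a 95% confidence interval from -0.45 to 0.28. Nmnat3 (ENSMUSG00000032456.13, chr9:98287435-98420438) read 24.0, 22.8, 28.4 and 39.9 in WT and 28.3, 28.2, 30.4 and 29.98 in Eμ-Myc, with 0.06 and an interval from -0.33 to 0.44. In both genes the WT libraries spread more widely than those of Eμ-Myc, whose values lay inside the WT range. The sign for Nmnat3 turned under total coverage scaling (-0.07) and without WT library 1 (-0.02) or 2 (-0.04). The start of Nmnat1 lies 27 bases from that of Lzic on the other strand, which rose by 0.90 on the log2 scale (adjusted p = 0.00011).

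The brain-type Nmnat2 and the muscle-type Nmrk2 did not reach the filter: Nmnat2 was at most 2.05 in any library, and Nmrk2 was listed at 0 in all 12.

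The second comparison, the knockout group against Eμ-Myc, asks what loss of PRPS2 changed in cells with the transgene. None of the 10 genes passed the test (0 of 10, limma), beside 0.00796% of all 12559 genes tested, a single gene, which was Prps2. The count was also 0 of 10 at an unadjusted p under 0.05, beside 0.955% of all genes, and 0 of 10 for groups that did not overlap, beside 1.75%. The median log2 fold change of the 10 genes was -0.03. Of the 3 enzymes that use PRPP, Nampt had a log2 fold change of 0.17 with a 95% confidence interval from -0.18 to 0.52, Naprt -0.03 from -0.67 to 0.60, and Qprt 0.38 from -0.75 to 1.51. All adjusted p-values of the 10 genes were 0.9999.

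The 2 pairs of knockout libraries lay on different sides of Eμ-Myc for several genes. Kynu read 13.9 and 11.5 in knockout libraries 1 and 2 but 0.561 in both 3 and 4, a 22.7-fold difference between the pairs' means, and the 4 Eμ-Myc values lay in between. Its log2 fold change of -1.05 accordingly had an interval from -3.17 to 1.077. Afmid read 29.8 and 21.8 against 8.64 and 7.74, and Kmo 70.3 and 60.2 against 33.1 and 28.0. Here too libraries 1 and 2 were above all 4 Eμ-Myc libraries and 3 and 4 below them.

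Qprt read 4.604 and 4.31 in libraries 1 and 2 and 1.12 and 0.897 in 3 and 4, so the first pair was above Eμ-Myc and the second just below its lowest value. Nmrk1 read 8.39 and 7.62 against 4.82 in both others, and Naprt 3.38 and 3.31 against 1.91 and 1.57. Nampt and Nmnat3 were ordered the other way. Nampt read 44.6 and 41.7 in libraries 1 and 2 and 58.8 and 61.1 in 3 and 4, and Nmnat3 31.5 and 25.0 against 45.4 and 42.7. Nadsyn1 read 23.0, 22.1, 19.97 and 19.97, and the mean of libraries 1 and 2 was 1.13-fold that of 3 and 4. Nmnat1 read 9.31, 7.82, 10.9 and 8.75, and the mean of libraries 3 and 4 was 1.15-fold that of 1 and 2, with library 4 below library 1.

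The same pairs differed in markers of other cells and in Myc. The T-cell sums were 510 and 535 in knockout libraries 1 and 2 and 13.6 and 12.3 in 3 and 4. The dendritic sums were 176 and 115 against 27.7 and 21.1, and the myeloid sums 17660 and 12700 against 4038 and 2345. The B-cell sums were alike in all 4, from 6396 to 6791, while Prps2 ran from 16.4 to 18.4. Myc read 1107 and 1661 in libraries 1 and 2 and 3048 and 3318 in 3 and 4. The part of these cells, and of the level of Myc, in the values of the 10 genes was not tested.

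Without knockout libraries 1 and 2, 5 of the 10 genes passed the test against Eμ-Myc (limma), beside 30.8% of all genes in that fit: Kynu fell by 2.86 on the log2 scale (adjusted p = 0.00069), Afmid by 0.93 (0.0085) and Kmo by 0.70 (0.0139), while Nmnat3 rose by 0.59 (0.0103) and Nampt by 0.40 (0.0331). Without libraries 3 and 4 instead, 0 of 10 passed, beside 4.36% of all genes, and Kynu, Afmid, Kmo, Nampt and Nmnat3 all had the opposite sign. These subsets were chosen after the pairs had been seen and show how far the group mean rests on each pair.

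**Figure D4:**
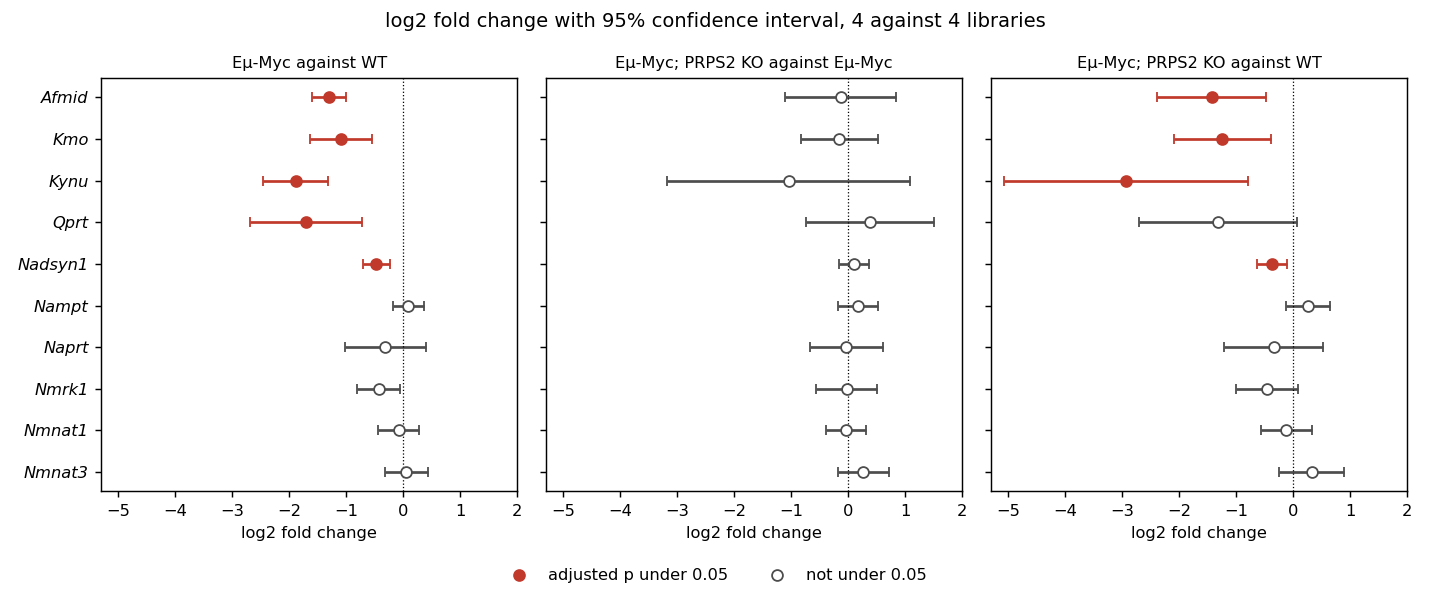
log2 fold changes of the 10 genes (points) with 95% confidence intervals (bars) in the 3 comparisons, 4 against 4 libraries each; filled points passed an adjusted p of 0.05. In Eμ-Myc against WT 5 genes passed, beside 55.7% of all genes. In the knockout group against Eμ-Myc 0 did, beside 0.00796%, and in the knockout group against WT 4 did, beside 29.4%. All 10 intervals were wider in the knockout group against WT than in Eμ-Myc against WT.

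The third comparison set the knockout group against WT, which joins the effects of transgene and deletion. It shares its WT libraries with the first comparison and its knockout libraries with the second, so it is no independent repeat of either. Of the 10 genes 4 fell and 0 rose (limma, Benjamini-Hochberg over 12710 genes), beside 11.8% of all genes that fell and 17.6% that rose; those that fell were Kynu, Afmid, Kmo and Nadsyn1. The groups did not overlap for the same 4 genes, beside 17% of all genes that were lower without overlap. Kynu fell by 2.94 on the log2 scale (SE 0.93, adjusted p = 0.0472), Afmid by 1.43 (SE 0.42, 0.0403), Kmo by 1.25 (SE 0.37, 0.0413) and Nadsyn1 by 0.37 (SE 0.12, 0.0454). Qprt, at -1.32 (SE 0.60), did not pass (adjusted p = 0.111), and knockout libraries 1 and 2 lay within the WT range. Haao ran from 32.2 to 78.3 in the knockout group and fell by 1.35 (SE 0.31, adjusted p = 0.0255).

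Among the other genes Nampt had a log2 fold change of 0.26 (95% confidence interval -0.13 to 0.65), Nmnat3 0.32 (-0.25 to 0.89), Nmrk1 -0.46 (-0.998 to 0.09), Naprt -0.35 (-1.22 to 0.53) and Nmnat1 -0.12 (-0.56 to 0.32). All 4 calls lay close to the threshold. With single libraries left out the log2 fold change ran from -3.59 to -2.33 for Kynu, -1.77 to -1.14 for Afmid, -1.46 to -1.03 for Kmo and -0.41 to -0.34 for Nadsyn1, so the values stayed negative. The calls moved with those of all genes: 0 of 10 passed without any 1 WT library, beside 3.42% to 8.37% of all genes, and without knockout library 3 or 4, beside 4.71% and 4.06%. Without knockout library 1 the count was 4, beside 53.3%, and without library 2 it was 3, beside 33.2%. Without knockout libraries 1 and 2 together 8 of 10 passed, 6 lower and 2 higher, beside 70.0% of all genes in that fit.

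Genes around NAD were described by lists. Of the 4 genes of the PRPP synthetase complex 3 rose in Eμ-Myc against WT, beside 28.3% of all genes that rose: Prps1 by 1.58 on the log2 scale (limma, adjusted p = 2.6e-05), Prps2 by 0.92 (0.00084) and the regulatory subunit gene Prpsap1 by 0.45 (0.0072). In the knockout group against Eμ-Myc, Prps2 fell by 3.77 (SE 0.14, adjusted p = 2.7e-05), while Prps1 had a log2 fold change of 0.07 with a 95% confidence interval from -0.74 to 0.89. Prps1 followed the pairs, at 65.5 and 91.3 in knockout libraries 1 and 2 and 184 and 195 in 3 and 4.

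Of the enzymes that consume NAD, 14 genes of the PARP family (ADP-ribosyltransferases) were listed, which need not be the whole family. Of these 14, 12 changed in Eμ-Myc against WT, beside 55.7% of all genes: 2 rose and 10 fell. Their median log2 fold change was -0.55 beside -0.06 over all genes. Those that rose were Parp1, by 0.69 (adjusted p = 0.0064), and Parp2, by 0.58 (0.00077). Both encode enzymes activated by DNA breaks, as does Parp3, which fell by 1.56 (9.4e-06). Parp4, of the vault particle, fell by 1.31 (0.00018) and Parp14 by 1.04 (0.00036). In the knockout group against Eμ-Myc 0 of 14 passed, beside 0.00796% of all genes, and against WT Parp1 rose and Parp3, Parp4, Parp9 and Parp11 fell, beside 29.4% of all genes that changed.

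Of the 7 sirtuins, the NAD-dependent deacylases, 3 changed in Eμ-Myc against WT (limma), beside 55.7% of all genes: Sirt5 rose by 0.49 on the log2 scale (adjusted p = 0.0343), Sirt2 fell by 0.39 (0.0077) and Sirt7 by 0.50 (0.0201), and 0 of 7 passed in the knockout group against Eμ-Myc or against WT, beside 0.00796% and 29.4% of all genes. Cd38, an NAD glycohydrolase of the lymphocyte surface, fell by 1.11 in Eμ-Myc against WT (adjusted p = 0.0026), from a range of 92.0 to 169 to one of 47.1 to 71.6, and it read 92.4 and 64.7 in knockout libraries 1 and 2 and 20.2 and 21.2 in 3 and 4. Its relative Bst1 had a log2 fold change of 0.11 (adjusted p = 0.868), with WT library 1 at 72.8 and the others at 11.3 to 14.9. Of the kinases that make NADP, mitochondrial Nadk2 rose by 0.68 (adjusted p = 0.0019). Cytosolic Nadk did not pass (-0.47, adjusted p = 0.119), with WT library 1 at 797 and the other WT libraries at 362 to 389.

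Of 10 genes of nicotinamide clearance, nucleotide breakdown and transport 6 were tested. The nucleoside carrier gene Slc29a1 rose by 1.90 on the log2 scale (adjusted p = 3.2e-06), and Nt5e, the ectonucleotidase CD73, fell by 1.74 (0.0054). Pnp, the purine nucleoside phosphorylase gene, had 0.38 (0.111). Slc29a1 ran from 168 to 200.3 in WT and from 578 to 738 in Eμ-Myc, without overlap.

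The genes whose log2 scaled coverage ran most like that of a given gene over the 12 libraries were sought among 9652 genes, by Pearson's r, as a description: all pairs share libraries, scaling and the split between groups. For Kynu they were Rasgrp3 (r = 0.998), March1 (0.997) and Cnr2 (0.995), and for Kmo they were Bank1 (0.995), Spns2 (0.99) and Cd180 (0.987). Rasgrp3, Cnr2, Bank1 and Cd180 are known from B cells, a remark not made for March1 and Spns2. The summed B-cell markers were alike in all knockout libraries, from 6396 to 6791. The T-cell, natural killer, dendritic and myeloid sums differed between the pairs of knockout libraries, as Kynu and Kmo did. Afmid ran with Ap3m2 (0.991), Itgb3 (0.987) and Tgfbr2 (0.987). Nadsyn1 ran with Lrif1 (0.976), Rbm12b1 (0.97) and Retreg2 (0.967). The searched genes that did not pass the test had less close partners: r was 0.948 for Nmnat3 with Mms19, 0.934 for Nampt with Uxs1 and 0.866 for Nmnat1 with Dus2. Qprt, Naprt and Nmrk1, with means under 8, were not searched. Rasgrp3 fell by 2.47 on the log2 scale in Eμ-Myc against WT (limma, adjusted p = 3.8e-05), and its interval in the knockout group against Eμ-Myc ran from -4.15 to 1.39. What the likeness rests on was not tested.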

How the data were processed

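Polyadenylated RNA of 12 libraries was measured. The authors deposited 1 table per library with the mean coverage per gene, a coverage signal with 1 decimal, as the values show; 91.6% of values above 0 were not whole (tolerance 0.001), so they are not counts. The submitters' processing notes name mm10, DESeq and R 4.3.3 with no role; the aligner, annotation and use of strand are not given in the sources used here.

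Each library was divided by 1 factor, from the unweighted trimmed mean of log ratios to the geometric mean library (trimming 30% of the ratios and 5% of the means on either side). A gene entered a comparison if 4 or more of its 8 libraries had a scaled coverage of 1 or more, and was fitted with limma 3.58.1 in R 4.3.3 (trended prior, robust) on log2(scaled coverage + 0.5), which understates changes of low genes. Adjusted p-values are Benjamini-Hochberg over all genes, two-sided, called under 0.05. The method was tested on simulated data, but the outcome is not given here. Tables and plots used Python 3.11.15, pandas 2.3.3 and matplotlib 3.10.9.

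The genes, lists and alternatives were chosen with earlier results of these data known. Named were all 10 genes, the 3 genes of each list with the smallest p in Eμ-Myc against WT, Myc, Prps2, and for genes with a mean of at least 8 the 3 most similar ones; Parp1, Parp2, neighbouring genes, marker genes that passed, and genes listed near 0 were added after their values were seen. Positions are from GENCODE M21 (GRCm38) and promoters from RefSeq (GRCm38.p6). Replicate numbers are shared by the groups. A blocked alternative took the numbers as pairs in all 3 comparisons. In the knockout group and Eμ-Myc, deviations of same-numbered libraries correlated across genes with r of 0.64, 0.189, 0.244 and 0.598. Knockout libraries 1 and 4 were most like the Eμ-Myc library of the same number, and 2 and 3 were not. The labels do not say that the numbers are pairs. Alternatives were 2 other scalings, testing every gene, requiring 10 in each library, pseudocounts of 0.1 and 2, all 12 libraries in 1 fit, the replicate block, library quality weights and leaving out libraries singly. Leaving out the pairs of like libraries was added after seeing the data.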

Additional observations from a re-analysis of the deposited data

Results flagged for a closer look

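A screen covered the 10 genes and up to 3 genes of each list around NAD, those with the smallest p in Eμ-Myc against WT. In 87 groups of 4 libraries it sought a library far from the other 3 relative to the range of its group. Of these groups 8 stood out. For a single group of 4 normally spread values chance gives about 1 in 20. The groups share the same libraries, so this rate cannot show whether 8 is more than chance gives. Other genes named in the report, such as Parp1, Parp2 and Nmnat2, were not screened. Of 30 groups of the 10 genes 1 stood out: Nampt in Eμ-Myc library 2, at 40.39 the lowest of its group. WT library 1 stood out in 4 groups, as the highest for Nadk (796.8), Nadk2 (65.99) and Bst1 (72.84) and the lowest for Parp3 (70.75). Eμ-Myc library 1 was the highest of its group for Parp3 (32.36) and Nt5e (2.666), and Eμ-Myc library 4 for Kyat1 (42.31). The 2 pairs of knockout libraries cannot be found by this screen, which looks for single libraries.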

How the results depend on the processing

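The unknown read depth, the 1 decimal of low values such as Kynu at 0.561 and Qprt at 0.897, and 4 libraries per group limit what can be called. In Eμ-Myc against WT 5 of the 10 genes passed, beside 55.7% of all genes, so the count was not above that share. A filter of 10 in every library left 5 genes to test and 3 passed (59.4% of all genes). Leaving out single libraries gave 5 to 6 (46.7% to 55.2%). In the knockout group against Eμ-Myc 0 passed, beside 0.00796% of all genes, and 0 in every leave-one-out fit. But 5 did with library quality weights, beside 61.3% of all genes, and 5 without knockout libraries 1 and 2, beside 30.8%. In the knockout group against WT 4 passed, beside 29.4% of all genes. There 1 passed with no filter (16.2% of all genes), 2 with the filter of 10 (37.9%), 8 with quality weights (82.9%), 8 without knockout libraries 1 and 2 (70.0%), and 0 without knockout libraries 3 and 4 (1368 of 12473 genes), WT libraries 1 and 4 (0.0242%) or WT libraries 2 and 3 (0.0161%); single libraries left out gave 0 to 4 (3.42% to 53.3%). The causes were not tested.

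With the replicate block the counts were 5, 0 and 0 in the order of the report, beside 57.5%, 0.00796% and 12.5% of all genes, so it changed no call in the knockout group against Eμ-Myc. In every comparison the labels give same-numbered libraries no link beyond the number. For the other comparisons r was 0.224, -0.0987, 0.249 and 0.127 (Eμ-Myc and WT), and 0.39, -0.41, 0.135 and -0.0628 (the knockout group and WT). The 4 calls of the knockout group against WT lost under the block had adjusted p-values of 0.0529 to 0.108 (limma).

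Signs turned in Eμ-Myc against WT for Nampt (-0.0351) and Nmnat3 (-0.0693) with total coverage scaling, which moved the median of all genes from -0.06 to -0.18, for Naprt without WT libraries 1 and 4 (0.18) and for Nmnat3 without WT libraries 2 and 3 (-0.0813). In the knockout group against Eμ-Myc they turned with quality weights for Nmnat1 (0.0301) and Qprt (-0.27), without knockout libraries 1 and 2 for Nmnat1 (0.0529) and Qprt (-0.48), and without libraries 3 and 4 for Nampt (-0.0661), Naprt (0.36), Nmnat3 (-0.0567), Nmrk1 (0.31), Kmo (0.39), Kynu (0.77) and Afmid (0.65). Against WT they turned without knockout libraries 3 and 4 for Naprt (0.0463) and Nmnat3 (-0.001), and without WT libraries 1 and 4 for Naprt (0.15). Leaving out single libraries gave, in Eμ-Myc against WT, -0.0415 to 0.22 for Nmnat3 and -0.16 to 0.0013 for Nmnat1, and in the knockout group against Eμ-Myc -0.17 to 0.13 for Naprt, -0.16 to 0.0822 for Nmrk1, -0.12 to 0.0314 for Nmnat1, -0.47 to 0.15 for Afmid and -0.37 to 0.0643 for Kmo.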
